A study of Mus musculus with 8 samples.

Results

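The loci of 10 Sox genes (Sox2, Sox15, Sox21, Sox1, Sox17, Sox7, Sox18, Sox9, Sox5 and Sox6) were examined in 8 CUT&Tag peak lists from mouse embryonic fibroblasts (MEFs). CUT&Tag uses an antibody to bring the transposase Tn5 to a chromatin-bound protein, so that DNA next to the protein is cut and sequenced. The genes were listed by name out of 21938 protein-coding genes on the placed chromosomes of the annotation. A locus was the gene body plus 100 kb to either side of the gene's first start site. A peak belonged to a locus when its summit, the position with the most tags, lay inside it. The 10 loci did not overlap and covered 3.32 Mb, or 0.122% of the genome. They held 955 of the 661009 summits over the 8 libraries, in 470 merged regions. A further 2 summits, both on the Sox2 coding sequence, were set apart.

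All 8 libraries came from MEFs at day 3 of reprogramming, each made with an antibody to Flag, the tag on the delivered factor. The labels give 100000 cells per sample, and the study's methods give a smaller number. The titles name native Nanog, native Oct4, native Sox2 and native Nr5a2, and their fusions NanogBiD, Oct4BiD, Sox2BiD and Nr5a2BiD. BiD is a stretch of 70 residues of SS18, a subunit of the BAF chromatin remodelling complex, that binds the BRG1 ATPase. Per the study's methods, factors were delivered by retrovirus into OG2 MEFs, which carry a GFP reporter of Oct4, and BiD was joined to the N-terminus. Which further factors these cells received is not given in the titles, and every group holds 1 library. No difference below therefore has a replicate check, no test was run, and the intervals given (95%, exact Poisson for a count and exact binomial for a share) cover counting error only.

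The lists held between 54794 peaks (native Oct4) and 120594 peaks (Sox2BiD). A peak's score is 10 times the negative log10 of its MACS p-value, and its height is the number of tags at the summit. Neither is scaled to depth. The read totals in the study's reporting summary were not used for scaling; by them the library with more peaks was the one with fewer read pairs for Oct4, Sox2 and Nr5a2, and the one with more read pairs for Nanog. The text mainly gives a peak's rank by score within its own list. At least 1 summit lay within 2 kb of a start site for 6 of 6 fibroblast marker genes in 7 libraries. In native Sox2 this held for 3 of 6. For 4 pluripotency markers the number was 0 in every library. Of 3 endothelial markers, native Nr5a2 had 3 and Nr5a2BiD 1 with such a summit, against 0 in the other 6 libraries. Of 3 neural progenitor markers, between 0 and 3 had one. Of all protein-coding genes, 25.2% had one in native Sox2, and 39% (native Oct4) to 63.5% (native Nr5a2) in the other 7 libraries. The markers are few and these shares high, so the numbers do not check the cell label. These summits show where the factors were found, not whether a gene was expressed.

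Sox proteins share a high-mobility-group (HMG) box that binds the minor groove of DNA at a short core, CATTGT on one strand and ACAATG on the other, and bends it. The family is divided into subgroups by sequence. Sox1 and Sox2 (SoxB1) maintain neural progenitors, and Sox2 also works with Oct4 in pluripotent cells. Sox21 (SoxB2) counteracts SoxB1 proteins in the nervous system. Sox5 and Sox6 (SoxD) act with Sox9 (SoxE) in cartilage, Sox7, Sox17 and Sox18 (SoxF) act in endothelium and endoderm, and Sox15 (SoxG) is close to SoxB1 in its HMG box. Several Sox genes have long stretches of non-coding DNA around them that hold distant enhancers.

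For 7 of the 10 genes, the summit with the best rank in its own list, over all 8 libraries, came from a Sox2 library. Their sequences are shown because each of the 7 windows of 101 bases, 50 to either side of the summit, held the SOX core. Capitals mark the core on either strand. All sequences are the plus strand of the mm10 assembly (GRCm38), 5′ to 3′.
Sox2, 12.3 kb upstream of the start, in an intron of Sox2ot, Sox2BiD, chr3:34638010-34638110: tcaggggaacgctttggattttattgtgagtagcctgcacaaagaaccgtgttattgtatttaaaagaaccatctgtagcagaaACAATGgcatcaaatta
Sox1, 71.8 kb upstream, intergenic, native Sox2, chr8:12323489-12323589: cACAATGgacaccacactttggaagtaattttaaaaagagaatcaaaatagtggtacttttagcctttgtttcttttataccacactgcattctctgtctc
Sox21, 6.4 kb downstream of the start, intergenic, native Sox2, chr14:118230598-118230698: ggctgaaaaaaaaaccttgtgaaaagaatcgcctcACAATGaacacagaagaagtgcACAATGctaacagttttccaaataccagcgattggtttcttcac
Sox5, 111.1 kb downstream, in an intron of Sox5 and an exon of the RNA gene Sox5it, Sox2BiD, chr6:144670859-144670959: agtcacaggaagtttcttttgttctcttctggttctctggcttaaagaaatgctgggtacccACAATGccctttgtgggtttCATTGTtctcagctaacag
Sox6, 213.9 kb downstream, in an intron of Sox6, native Sox2, chr7:115824855-115824955: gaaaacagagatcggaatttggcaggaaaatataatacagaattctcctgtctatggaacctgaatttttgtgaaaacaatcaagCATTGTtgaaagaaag
Sox7, 63.8 kb upstream, in an intron of Pinx1, Sox2BiD, chr14:63879810-63879910: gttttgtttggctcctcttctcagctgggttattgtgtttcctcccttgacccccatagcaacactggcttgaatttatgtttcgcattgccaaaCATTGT
Sox17, 80 kb upstream, intergenic, Sox2BiD, chr1:4577295-4577395: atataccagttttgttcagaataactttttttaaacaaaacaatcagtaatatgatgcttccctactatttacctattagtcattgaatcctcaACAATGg
The core stood in 18.5% of all native Sox2 summits and in 22.3% of all Sox2BiD summits, and among the highest-scoring 1% of each list in 23.1% of 581 and 29.2% of 1206. It is short, so a match is a description of the window and not a site.

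A pair of strong Oct4BiD sites carried the octamer, the sequence bound by Oct4 and its relatives, here searched as ATGCAAAT or its reverse complement ATTTGCAT. They are shown because the one at Sox9 had the highest score of all 955 summits, and the one at Sox7 was the highest-scoring Oct4BiD peak at the loci that did not overlap a native Oct4 peak. Capitals mark the octamer.
Sox9, 57.8 kb downstream of the start, intergenic, chr11:112839924-112840024: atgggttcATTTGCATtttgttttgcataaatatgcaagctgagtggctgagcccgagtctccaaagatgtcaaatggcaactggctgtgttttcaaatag
Sox7, 7.2 kb upstream, intergenic, chr14:63936438-63936538: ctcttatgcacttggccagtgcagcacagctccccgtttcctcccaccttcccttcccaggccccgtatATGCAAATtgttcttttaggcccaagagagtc

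Summits at the Sox loci were most numerous in Sox2BiD and fewest in native Nanog. The 10 loci together held 82 summits (65.2 to 102) in native Nanog, while NanogBiD had 106 (86.8 to 128). Native Oct4 had 86 (68.8 to 106) there, while Oct4BiD had 124 (103 to 148). Native Sox2 had 96 (77.8 to 117), while Sox2BiD had 194 (168 to 223). Native Nr5a2 had 166 (142 to 193) and Nr5a2BiD 101 (82.3 to 123). The lists differ in length, and per 10000 peaks of a library the totals ran from 11.2 in native Nanog to 16.5 in native Sox2. The density of summits at the loci, relative to the whole genome in the same library, was 1.35 for native Sox2, 1.32 for Sox2BiD, 1.29 for native Oct4 and 1.26 for native Nr5a2. It was 1.15 for NanogBiD, 1.09 for Nr5a2BiD, 1.08 for Oct4BiD and 0.916 for native Nanog. Against all protein-coding loci counted by the same rule, the median Sox locus was mostly not denser. Its summits per 100 kb were 2.03 against a median of 2 in native Sox2, and 2.5 against 2.5 in native Oct4. They were lower in Sox2BiD (5.38 against 6), native Nr5a2 (5.33 against 7), Nr5a2BiD (2.25 against 4.5) and Oct4BiD (3.72 against 5). They were also lower in NanogBiD (2.85 against 4) and native Nanog (2.33 against 3.5). Sox5 and Sox6 are long genes and held between 29.7% (Nr5a2BiD) and 66.7% (native Sox2) of a library's summits.

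**Figure D1:**
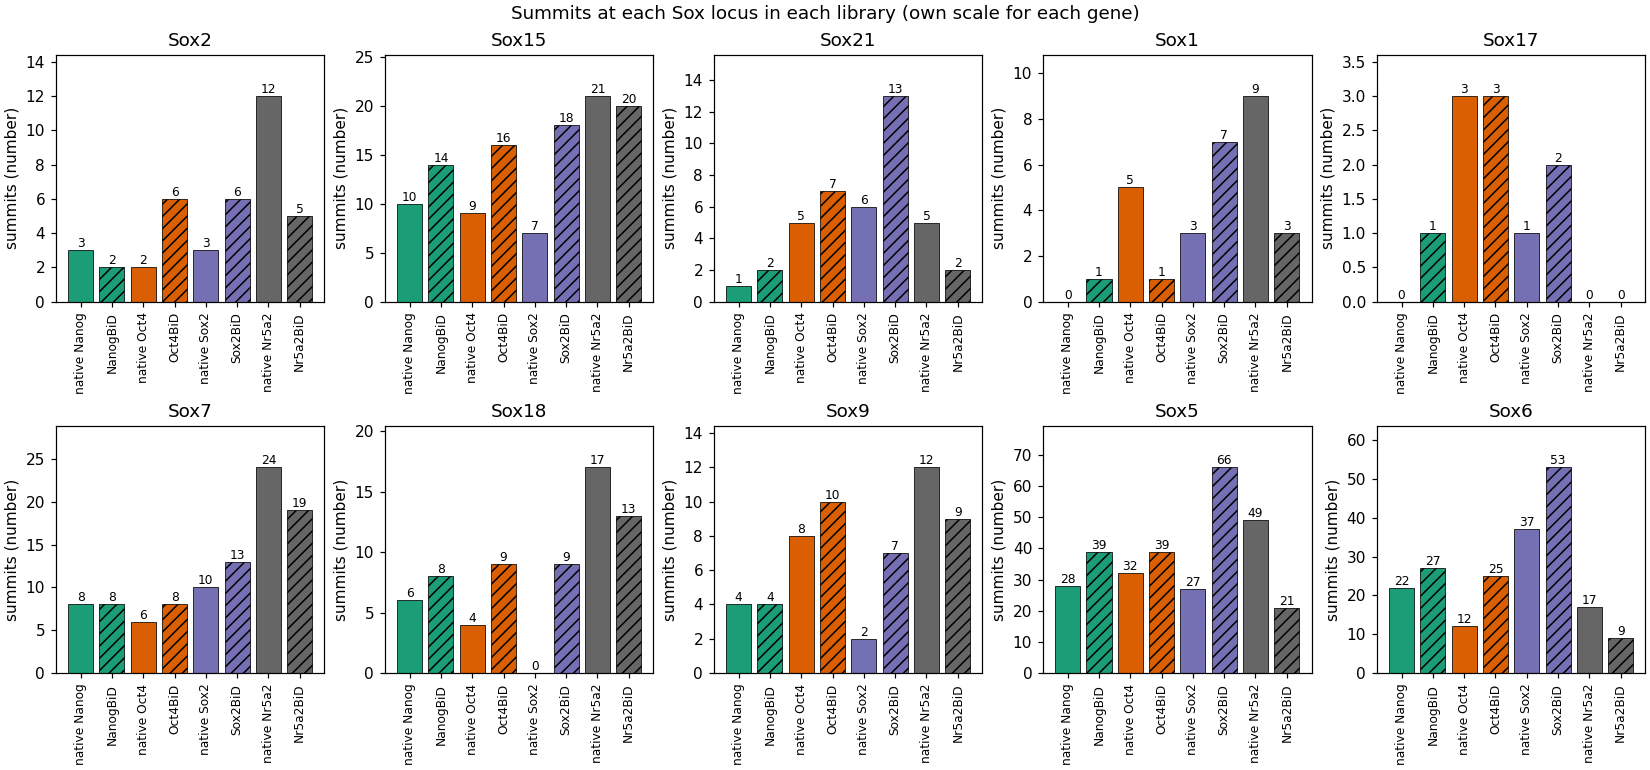
Number of summits at each of the 10 Sox loci (vertical axis, with its own scale for each gene) in the 8 libraries; plain bars are native factors and hatched bars BiD fusions. Sox2BiD had the most summits at Sox21, Sox5 and Sox6 (13, 66 and 53), and native Nr5a2 the most at Sox2, Sox15, Sox1, Sox7, Sox18 and Sox9, where it had 9 to 24.

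When every list was reduced to its 20000 highest-scoring peaks, which sets the length of the lists equal, the 2 Sox2 libraries had the most summits at the loci. Native Sox2 kept 40 (28.6 to 54.5) and Sox2BiD 45 (32.8 to 60.2). Native Nr5a2 kept 29 (19.4 to 41.6), Oct4BiD 27 (17.8 to 39.3) and Nr5a2BiD 25 (16.2 to 36.9). Native Oct4 kept 21 (13 to 32.1), and native Nanog and NanogBiD kept 20 each (12.2 to 30.9). The intervals of native Sox2 and Sox2BiD overlap those of several other libraries, so this order is not resolved by the counts alone. Of the summits kept, 26 of 40 in native Sox2 and 26 of 45 in Sox2BiD lay at Sox5 and Sox6, against 6 of 29 in native Nr5a2 and 5 of 25 in Nr5a2BiD. Over the other 8 loci the numbers were 14 and 19 in the Sox2 libraries and 23 and 20 in the Nr5a2 libraries.

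**Figure D2:**
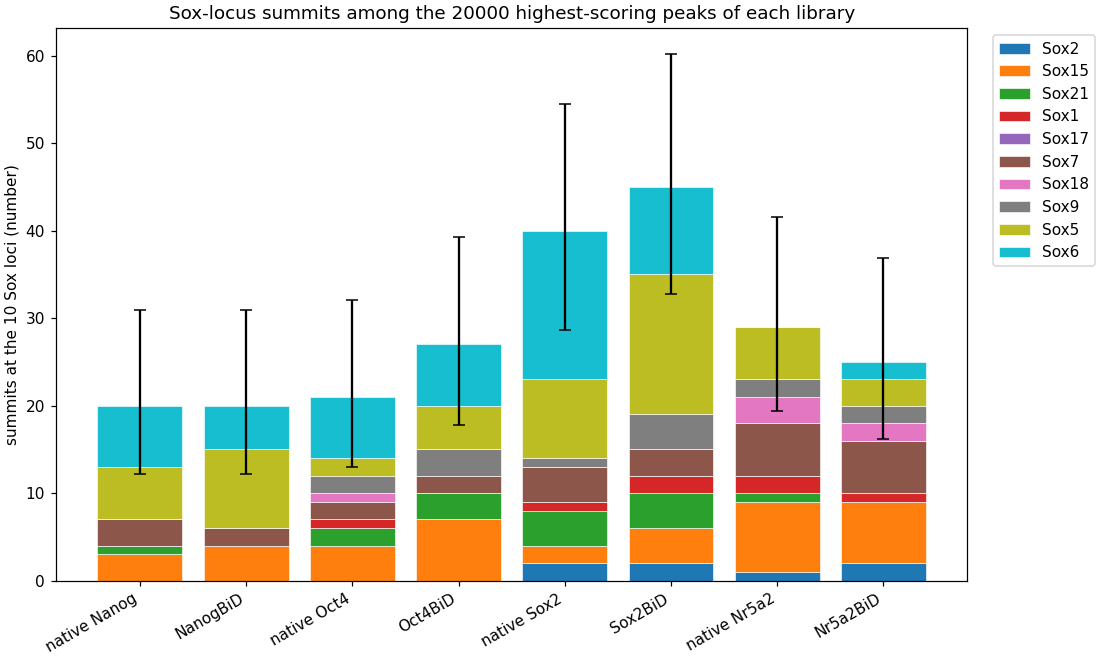
Summits at the 10 Sox loci (vertical axis, number) among the 20000 highest-scoring peaks of each library, stacked by gene; error bars are 95% Poisson intervals of the total. The bars of native Sox2 (40) and Sox2BiD (45) are the tallest, with Sox5 and Sox6 making up 26 of each.

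The Sox2 libraries also held most of the very strong Sox-locus summits. Among the highest-scoring 1% of its own list, native Sox2 had 6 Sox-locus summits: 2 at Sox21, 2 at Sox6, 1 at Sox1 and 1 at Sox7. Sox2BiD had 7: 2 at Sox5, 2 at Sox6, and 1 each at Sox1, Sox21 and Sox7. Some places stand in both counts: the best ranked sites of Sox1, Sox6 and Sox7, and a site 24.9 kb upstream of Sox21. NanogBiD had 1, at Sox6, and Oct4BiD had 1, at Sox9. Native Nanog, native Oct4, native Nr5a2 and Nr5a2BiD had 0. The 1% is between 548 peaks (native Oct4) and 1206 peaks (Sox2BiD), depending on the length of the list. In the highest-scoring 10% of the list stood 15.6% of the native Sox2 summits and 16.5% of the Sox2BiD summits at the loci. In the other 6 libraries this share ran from 4.72% in NanogBiD to 12.1% in Oct4BiD.

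Of the SoxB1 genes, Sox2 itself (chr3:34650405-34652461, plus strand) had few summits. The count was 3 in native Nanog, 2 in NanogBiD, 2 in native Oct4, 6 in Oct4BiD, 3 in native Sox2, 6 in Sox2BiD, 12 in native Nr5a2 and 5 in Nr5a2BiD. Native Nr5a2 was the highest, but the scores of its summits reached only 336.4. Of the 39 summits, 30 lay in Sox2ot, the long non-coding RNA gene that overlaps Sox2. The best ranked one, 12.3 kb upstream, scored 822.43 in Sox2BiD (rank 1412, 66 tags) and 377.7 in native Sox2 (rank 6695, 38 tags), with the summits 3 bp apart. A weak native Nr5a2 peak (77.64) joined the same region, with its summit 636 bp away. Within 2 kb of the Sox2 start, the only summit that was not on the coding sequence was one of Oct4BiD, 502 bp upstream (164.43, rank 39148).

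The peaks on the Sox2 coding sequence (chr3:34650416-34651372, 957 bp) stood in the 2 Sox2 libraries and in no other. The native Sox2 peak (chr3:34650330-34651449) scored 1208.22 with 63 tags and ranked 14 in its list. The Sox2BiD peak (chr3:34650157-34651439) scored 702.84 with 53 tags and ranked 3018. Both covered all 957 bp of the coding sequence and ended more than 1 kb before the end of the gene. The vectors delivered to these cells carry Sox2 coding DNA, and reads from it cannot be told apart here from reads of the gene itself, so these 2 peaks enter no count.

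Sox1 (chr8:12395295-12400126, plus strand), a gene of neural progenitors, had 0 summits in native Nanog, 1 in NanogBiD, 5 in native Oct4, 1 in Oct4BiD, 3 in native Sox2, 7 in Sox2BiD, 9 in native Nr5a2 and 3 in Nr5a2BiD. A count of 0 says only that no peak passed the caller's threshold. The site 71.8 kb upstream was found in both Sox2 libraries and in no other. Its scores were close, 961.57 in native Sox2 (rank 139, 79 tags) and 951.65 in Sox2BiD (rank 558, 64 tags), and the summits were 3 bp apart. The protein-coding start nearest the native Sox2 summit was that of A230072I06Rik, 44720 bp away. Of the 29 summits at the locus, 16 had the Sox1 start as their nearest. At the gene itself the only summit was in native Nr5a2, 1398 bp after the start and on the coding exon (516.48, rank 4794). It was the highest-scoring native Nr5a2 peak at the loci without an overlapping Nr5a2BiD peak.

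Summits on coding exons of the 10 genes were few and mostly from native Nr5a2. That library had one on Sox1, one on Sox7 (130.44, 124 bp after the start) and one on Sox18 (111.36, 918 bp after the start). The only other was a weak NanogBiD peak on Sox5 (71.69). Over the genome, summits on coding exons were also most frequent in the Nr5a2 libraries, with 2.84% in native Nr5a2 and 2.29% in Nr5a2BiD against 0.703% to 1.21% in the other 6.

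Sox21 (chr14:118233232-118237030, minus strand) had 1 summit in native Nanog, 2 in NanogBiD, 5 in native Oct4, 7 in Oct4BiD, 6 in native Sox2, 13 in Sox2BiD, 5 in native Nr5a2 and 2 in Nr5a2BiD. The native Sox2 site 6.4 kb downstream of the start, with its pair of SOX cores, scored 1108.09 (rank 40, 95 tags). The Sox2BiD peak there scored 732.8 (rank 2500, 84 tags), with the summit 81 bp away. A further site 24.9 kb upstream scored 795.58 in native Sox2 (rank 465) and 852.12 in Sox2BiD (rank 1157). The protein-coding start nearest to that site was that of Gm9376, 5042 bp from the native Sox2 summit. Of the 41 summits at the locus, 12 had the Sox21 start as their nearest. Both Sox2 libraries also had a peak at the Sox21 start itself, with summits 120 bp upstream in native Sox2 (81.44) and 126 bp upstream in Sox2BiD (244.06), and no other library had one within 2 kb. In all, 5 regions at this locus had peaks in both Sox2 libraries and in no other. The Oct4 libraries shared a site 10.8 kb downstream, where Oct4BiD scored 520.69 with 79 tags.

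Sox15 (chr11:69655314-69656727, plus strand) lies among 14 other protein-coding starts, those of Trp53, Fxr2 and Eif4a1 among them. Its locus had 10 summits in native Nanog, 14 in NanogBiD, 9 in native Oct4, 16 in Oct4BiD, 7 in native Sox2, 18 in Sox2BiD, 21 in native Nr5a2 and 20 in Nr5a2BiD. Of these 115 summits, 71 lay within 2 kb of the start of another gene and 1 had the Sox15 start as its nearest. The density of the locus exceeded that of 97.4% of protein-coding genes in Nr5a2BiD. In the remaining libraries this share ran from 72% (native Nanog) to 88.9% (Oct4BiD). The best ranked summit was of native Nanog, 22.6 kb upstream of Sox15 and 226 bp from the Fxr2 start (552.88, rank 1661, 54 tags). Peaks of the other 7 libraries stood there too, with scores from 307.54 to 509.06. At the Sox15 start, NanogBiD had a summit 663 bp upstream (106.38) and Nr5a2BiD one 1851 bp upstream (158.71). The other 6 libraries had none within 2 kb. A native Nr5a2 peak overlapped that of Nr5a2BiD with a higher score (289.07), but its summit lay 2.1 kb upstream. The Nr5a2BiD summit was nearer a start of Fxr2, 1143 bp away.

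**Figure D3:**
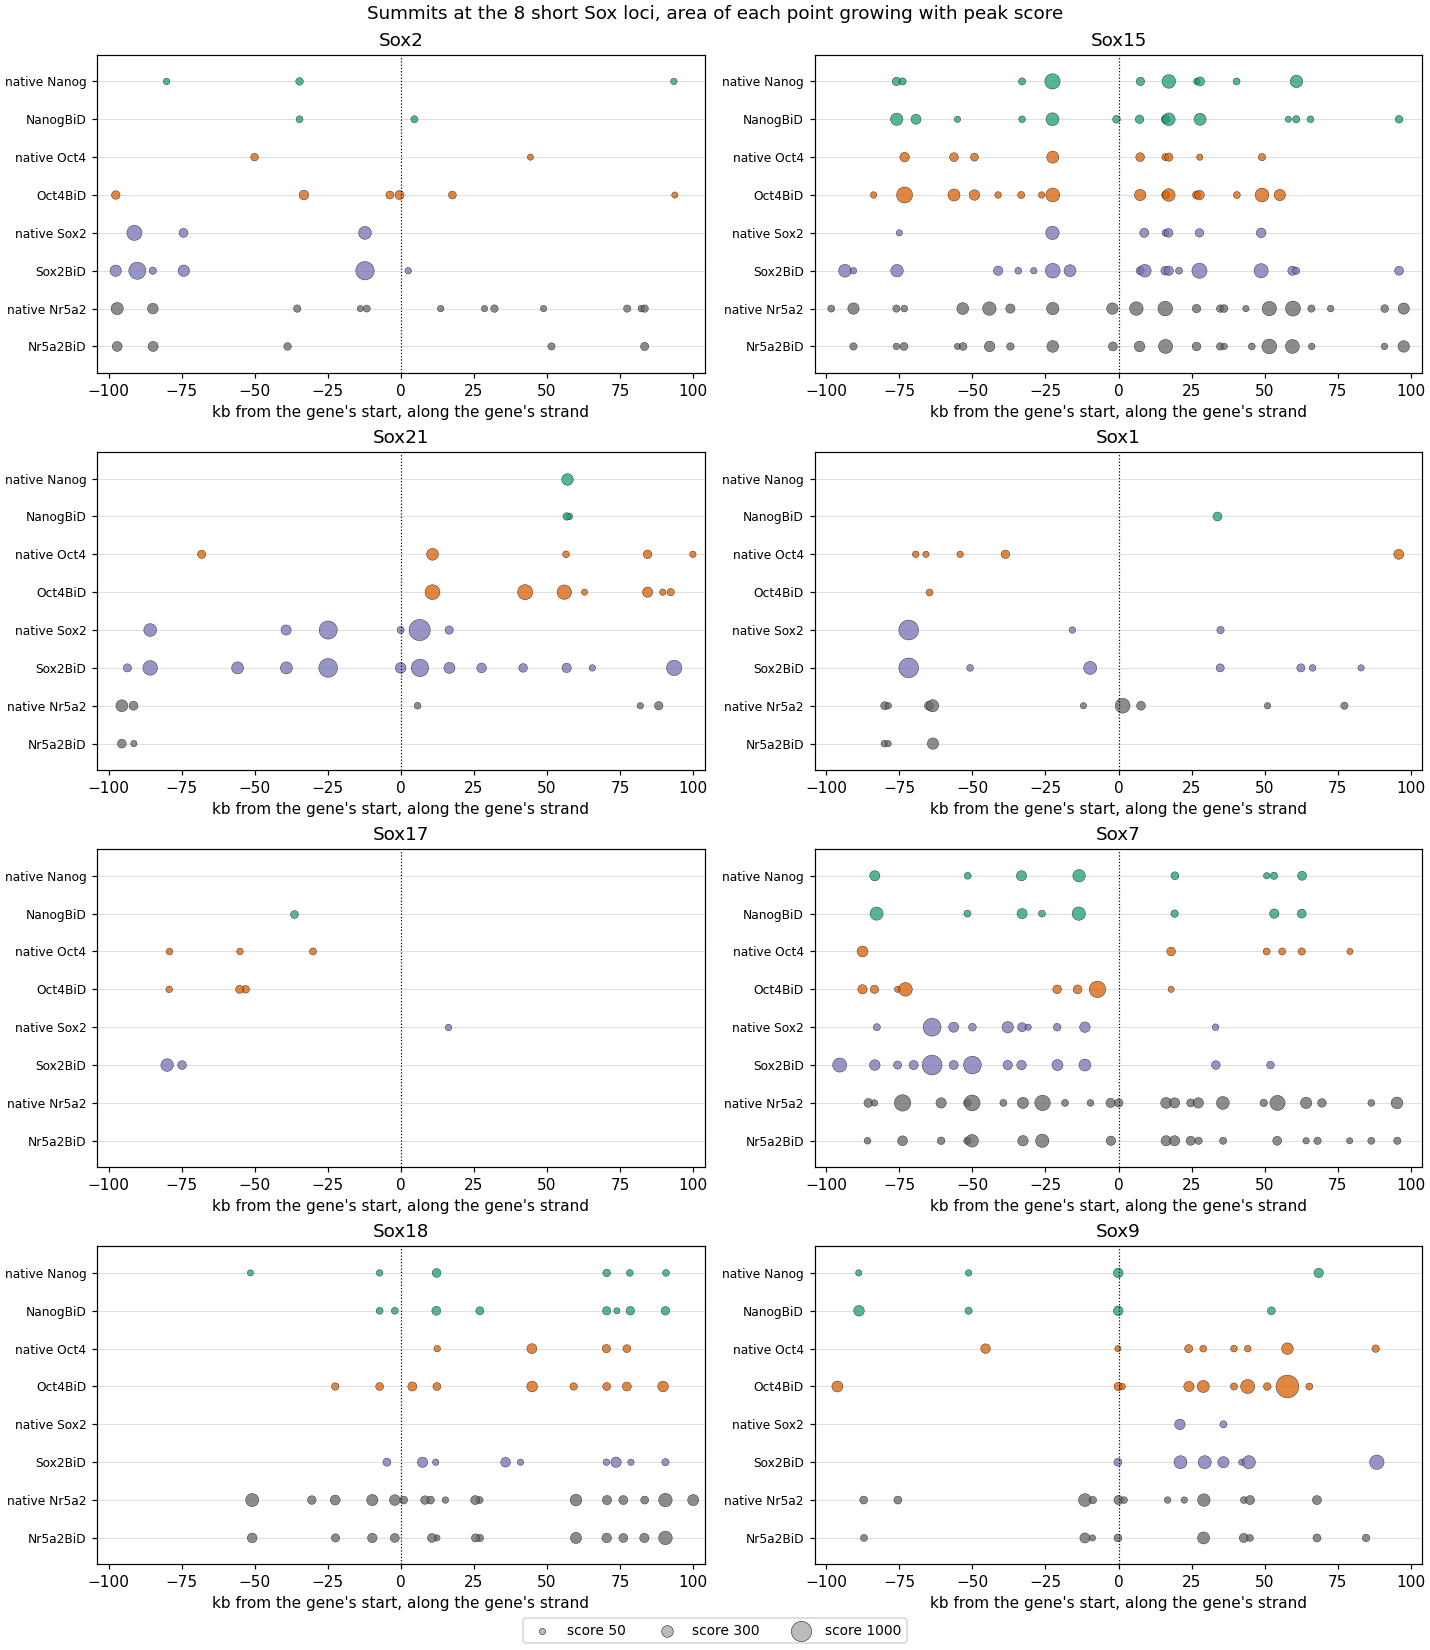
Summits at the 8 Sox loci of 200 kb (horizontal axis, kb from the gene's start along its strand) in the 8 libraries (rows); the area of a point grows with the peak score. Large points of both Sox2 libraries lie 12.3 kb upstream of Sox2, 6.4 kb downstream of Sox21, 71.8 kb upstream of Sox1 and 63.8 kb upstream of Sox7, and the largest point of all is Oct4BiD 57.8 kb downstream of Sox9.

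The SoxF genes, which act in endothelium, differed widely in their counts. Sox17 (chr1:4490931-4497354, minus strand) had the fewest of the 10 genes, 10 in all, with 0 in native Nanog, 1 in NanogBiD, 3 in native Oct4, 3 in Oct4BiD, 1 in native Sox2, 2 in Sox2BiD and 0 in both Nr5a2 libraries. It was the only member with no summit within 2 kb of a start in any library. Its best ranked summit, 80 kb upstream, was in Sox2BiD alone and was of middling rank (357.21, rank 21216, 31 tags).

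Sox7 (chr14:63943673-63950732, plus strand) had 8 summits in native Nanog, 8 in NanogBiD, 6 in native Oct4, 8 in Oct4BiD, 10 in native Sox2, 13 in Sox2BiD, 24 in native Nr5a2 and 19 in Nr5a2BiD. Its density exceeded that of 89.5% of protein-coding genes in native Nr5a2 and 95.6% in Nr5a2BiD, and also that of 93.4% in native Sox2. In the remaining libraries this share ran from 36.3% (Oct4BiD) to 56.6% (native Oct4). Of the 96 summits 35 lay in Pinx1, the neighbouring gene, whose product inhibits telomerase. In all, 61 lay in the body of another protein-coding gene and 14 within 2 kb of the start of one. The Sox7 start was the nearest for 15. The site 63.8 kb upstream was in both Sox2 libraries and in no other, with 773.2 in native Sox2 (rank 541, 78 tags) and 956.16 in Sox2BiD (rank 535, 79 tags). The octamer site 7.2 kb upstream was in Oct4BiD alone, with 647.72 (rank 1992, 57 tags).

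Sox18 (chr2:181669836-181671640, minus strand) had 6 summits in native Nanog, 8 in NanogBiD, 4 in native Oct4, 9 in Oct4BiD, 0 in native Sox2, 9 in Sox2BiD, 17 in native Nr5a2 and 13 in Nr5a2BiD. It was the only locus where native Sox2 had none. Of the 66 summits 32 lay within 2 kb of the start of another gene, out of 10 such genes in the locus. The best ranked, 90.5 kb downstream in Uckl1, scored 425.72 in Nr5a2BiD (rank 4140) and 415.41 in native Nr5a2 (rank 9005).

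Sox9 (chr11:112782224-112787760, plus strand), the master regulator of cartilage, had 4 summits in native Nanog, 4 in NanogBiD, 8 in native Oct4, 10 in Oct4BiD, 2 in native Sox2, 7 in Sox2BiD, 12 in native Nr5a2 and 9 in Nr5a2BiD. No other protein-coding gene starts in its locus, so the summits there cannot be assigned to a neighbour by nearness. The octamer site 57.8 kb downstream ranked 12 in Oct4BiD (1285.61, 83 tags) and 5406 in native Oct4 (298.76, 33 tags), with the summits 11 bp apart and no peak in the other 6 libraries. Sox9 also had the most widely shared promoter of the 8 short loci. Summits within 2 kb of its start stood in 7 libraries, all but native Sox2, with scores from 50.5 in native Oct4 to 188.62 in NanogBiD. These are modest peaks: their best ranks within a list ran from 23667 to 74801.

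The SoxD genes are much longer than the rest. Sox5 (chr6:143828425-144781977, minus strand, 954 kb) had 28 summits in native Nanog, 39 in NanogBiD, 32 in native Oct4, 39 in Oct4BiD, 27 in native Sox2, 66 in Sox2BiD, 49 in native Nr5a2 and 21 in Nr5a2BiD. Of the 301 summits 277 lay in the gene body. The best ranked site, 111.1 kb downstream, scored 1036.28 in Sox2BiD (rank 293, 92 tags) and 536.16 in native Sox2 (rank 2637, 50 tags), with a weaker peak in native Nanog (121.02). Sox5 has 12 annotated start sites. Near a start 571 kb into the gene Sox2BiD had a peak of 675.91 (58 tags) that no native Sox2 peak overlapped, the highest of that kind at the loci.

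Sox6 (chr7:115470872-116038796, minus strand, 568 kb) was where the 2 Sox2 libraries stood out by number. It had 22 summits in native Nanog, 27 in NanogBiD, 12 in native Oct4, 25 in Oct4BiD, 37 in native Sox2, 53 in Sox2BiD, 17 in native Nr5a2 and 9 in Nr5a2BiD. The native Sox2 density of 5.54 summits per 100 kb exceeded that of 97.2% of protein-coding genes in the same library. The Sox2BiD density of 7.94 exceeded that of 73.6%, the NanogBiD density of 4.04 that of 52%, and the remaining libraries stood between 18.3% and 46.7%. Of the 46 regions at the loci with peaks in both Sox2 libraries and in no other, 21 lay at Sox6. The best ranked site lies 213.9 kb into the gene and 195 bp upstream of one of its 13 annotated starts. It scored 994.87 in native Sox2 (rank 110, 71 tags) and 923.71 in Sox2BiD (rank 676, 57 tags), and 236.19 in native Nanog and 55.15 in NanogBiD.

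**Figure D4:**
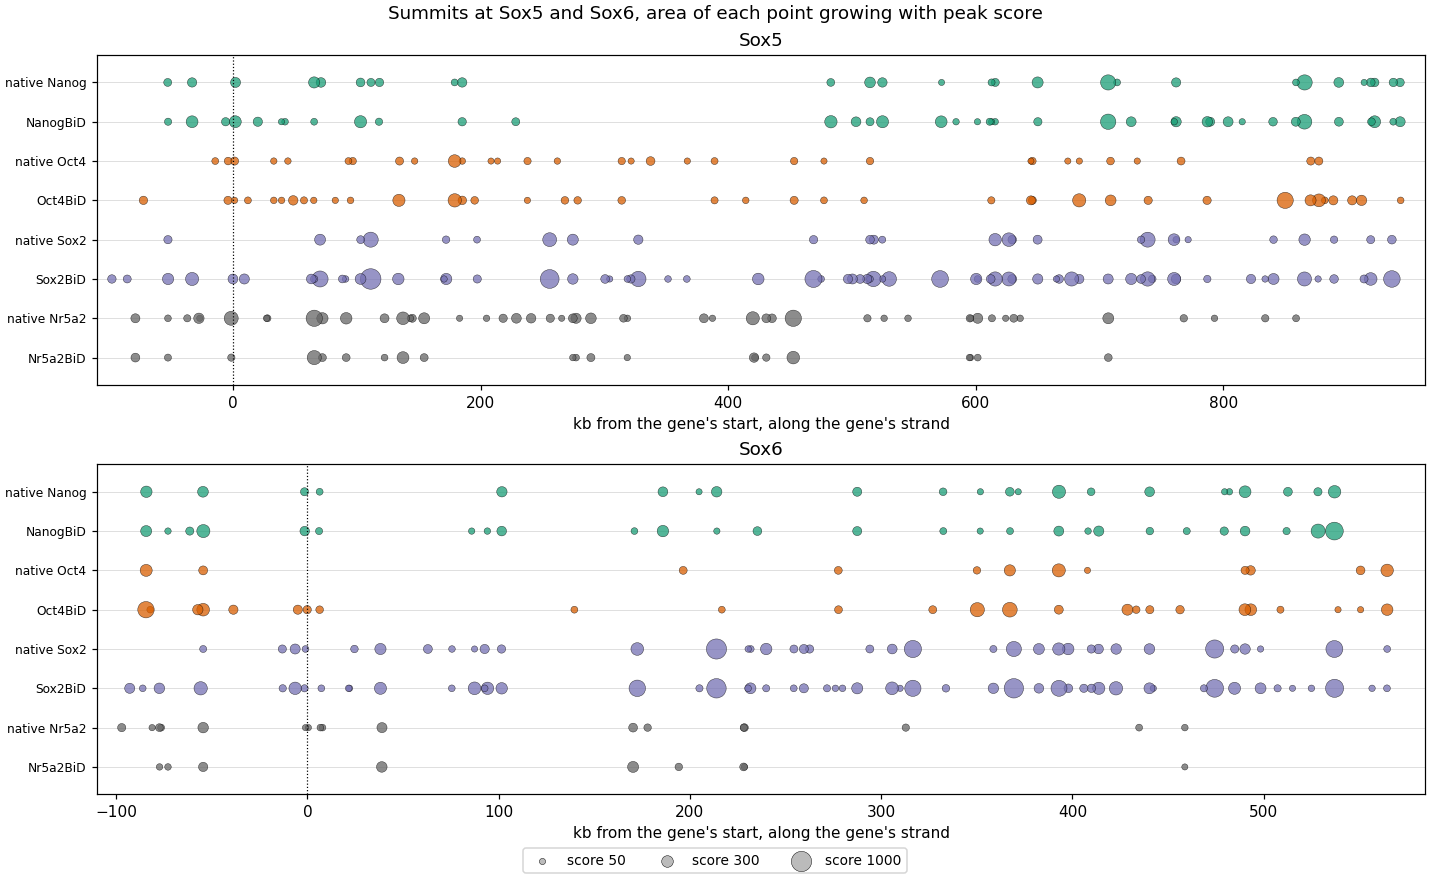
Summits along Sox5 and Sox6 (horizontal axis, kb from the gene's start along its strand) in the 8 libraries (rows); the area of a point grows with the peak score. At Sox6 the rows of native Sox2 (37 summits) and Sox2BiD (53) are filled along the whole gene, while those of native Nr5a2 (17) and Nr5a2BiD (9) are sparse.

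The BiD libraries were set against the native libraries to ask whether joining BiD to a factor changed its occupancy at the Sox genes. Summits were more numerous with BiD for Nanog, Oct4 and Sox2 and less numerous for Nr5a2, which is also how the whole lists differed in length. The log2 ratio of the summed counts, BiD over native, was 1.01 for Sox2, 0.53 for Oct4, 0.37 for Nanog and -0.72 for Nr5a2. The same ratio for all peaks of the libraries was 1.05, 0.78, 0.04 and -0.5 in that order. Per 10000 peaks, the log2 ratio at the Sox loci was 0.33 (-0.1 to 0.76) for Nanog and -0.25 (-0.66 to 0.16) for Oct4. It was -0.04 (-0.4 to 0.33) for Sox2 and -0.21 (-0.59 to 0.15) for Nr5a2. All 4 intervals include 0. Without Sox5 and Sox6 the value was 0.18 for Sox2, 0.01 for Nr5a2, 0.28 for Nanog and -0.26 for Oct4, again with intervals that include 0.

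**Figure D5:**
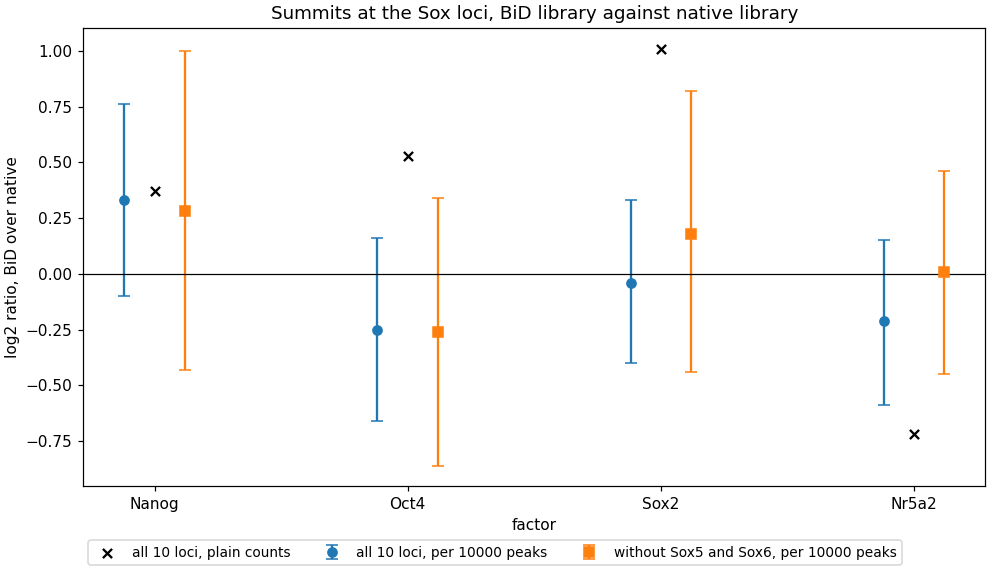
Log2 ratio of Sox-locus summits, BiD library over native library (vertical axis), for the 4 factors; circles are all 10 loci and squares the 8 loci without Sox5 and Sox6, both per 10000 peaks with 95% counting intervals, and crosses are the plain counts. Every interval crosses 0, and the crosses of Oct4 (0.53), Sox2 (1.01) and Nr5a2 (-0.72) lie outside the interval of their circle.

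By gene, NanogBiD had more summits than native Nanog at 7 of the 10 loci and fewer at 1 (Sox2), where 59.3% of all protein-coding genes with any summit had more and 23.7% fewer. Oct4BiD had more than native Oct4 at 8 and fewer at 1 (Sox1), against a background of 89.8% and 5.02%. Sox2BiD had more than native Sox2 at all 10, against 95.3% with more and 1.81% with fewer. Nr5a2BiD had fewer than native Nr5a2 at 9 and equal counts of 0 at Sox17, against 88.8% with fewer and 4.57% with more. Sox15, Sox21, Sox18, Sox5 and Sox6 had fewer summits with BiD for Nr5a2 and more for each of the other 3 factors, a pattern of 5 of the 10 members and of 49.9% of all protein-coding genes with any summit. The other 10 Sox genes (Sox3, Sox4, Sox8, Sox10, Sox11, Sox12, Sox13, Sox14, Sox30 and Sry) had more summits with BiD at 8 loci for Oct4, 8 for Sox2, 5 for Nanog and 0 for Nr5a2, and fewer at 0, 1, 2 and 8. The one with fewer in Sox2BiD was Sox3 (1 against 2), and those with fewer in NanogBiD were Sox11 (7 against 12) and Sox13 (2 against 3). In Nr5a2BiD all but Sox3 and Sry, which had equal counts, had fewer.

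Site by site, native Sox2 and Nr5a2BiD, the shorter list of each pair, were nearly contained in the other form. At the Sox loci 90.6% (82.9 to 95.6) of native Sox2 peaks overlapped a Sox2BiD peak and 44.8% (37.7 to 52.1) of Sox2BiD peaks overlapped a native one, against 86.3% and 41.4% over the genome. For Nr5a2, the share was 54.8% (46.9 to 62.5) in the native list and 91.1% (83.8 to 95.8) in the BiD list, against 60.7% and 86%. For Oct4, the native list had 62.8% (51.7 to 73) and the BiD list 42.7% (33.9 to 51.9), against 73.1% and 42.4%. For Nanog, they were 81.7% (71.6 to 89.4) and 63.2% (53.3 to 72.4), against 72.7% and 70.1%. Each genome share lay inside the members' interval except that of native Oct4, where 73.1% lies just above it. Native Oct4 alone had peaks in 25 regions at the loci (5.32%, against 2.92% over the genome), 12 of them at Sox5 and 5 at Sox1. Native Nanog alone had peaks in 4 (0.851% against 2.66%). The shares of the other libraries alone were 12.3% against 9.96% for native Nr5a2 and 4.26% against 3.67% for NanogBiD. They were 13% against 12.7% for Sox2BiD and 1.7% against 1.77% for native Sox2. For Oct4BiD they were 9.15% against 10.6%, and for Nr5a2BiD 1.28% against 1.8%.

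The strongest Sox-locus peak without an overlapping peak of the other form scored 675.91 in Sox2BiD (Sox5), 647.72 in Oct4BiD (Sox7) and 516.48 in native Nr5a2 (Sox1), all described above. In the other libraries such peaks were weaker, with 234.53 in NanogBiD (Sox5, 787 kb into the gene), 231.96 in native Sox2 (Sox6, 490.3 kb into the gene), 207.99 in native Oct4 (Sox1, 95.9 kb downstream), 191.68 in native Nanog (Sox5, 70.9 kb into the gene) and 101.12 in Nr5a2BiD (Sox2, 38.8 kb upstream).

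Between 2 and 6 of the 10 Sox genes had a summit within 2 kb of an annotated start. The number was 3 in native Nanog and 4 in NanogBiD, where the share of all protein-coding genes was 51.2% and 54.5%. It was 2 in native Oct4 and 4 in Oct4BiD, against 39% and 55.9%. It was 2 in native Sox2 and 4 in Sox2BiD, against 25.2% and 53.4%. It was 6 in native Nr5a2 and 4 in Nr5a2BiD, against 63.5% and 54%. Sox5 and Sox6, with 12 and 13 annotated starts, had such a summit in 7 libraries each, and Sox9, with 1 start, in 7. Sox2, Sox1, Sox7 and Sox18 had one in 1 library each. At Sox18, summits of Nr5a2BiD (156.33) and NanogBiD (75.65) lay just past this limit, 2071 and 2088 bp upstream. Of the other 10 Sox genes, between 3 and 7 had a summit within 2 kb, Sox4 and Sox11 in all 8 libraries.

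Of the 470 regions at the Sox loci 354 (75.3%) had peaks of 1 factor in either form, against 71.5% over the genome. By library, 225 of them (47.9%) had a peak in 1 library, against 46% of the 306466 regions of the genome. A further 151 had peaks in 2 libraries, and in 85.4% of these the 2 were both forms of 1 factor, against 84.3% over the genome. By factor, 46 regions had both Sox2 libraries only (9.79% of the regions at the loci and 6.62% over the genome), 21 of them at Sox6. Sox6 held 103 of the 470 regions. Peaks of both Nr5a2 libraries only stood in 44 (9.36% and 10.1%). Those of both Oct4 libraries only stood in 24 (5.11% and 5.03%) and those of both Nanog libraries in 15 (3.19% and 3.78%). The Nr5a2 pairs lay mainly at Sox7 (12), Sox5 (10) and Sox15 (7), and the Oct4 pairs at Sox5 (10).

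At the other end, 11 of the 470 regions (2.34%) had peaks in at least 7 libraries, against 3.19% over the genome. Of these, 5 lay at Sox15, 2 at Sox18 and 1 each at Sox9, Sox21, Sox5 and Sox6. In 9 of them the highest-scoring summit inside the locus lay nearest the start of another gene. These genes were Trp53, Fxr2, Mpdu1, Eif4a1, Senp3, Gpr180, Samd10, Prpf6 and 1110004F10Rik. Other summits of the Trp53 region lay nearest Wrap53, and other summits of the Samd10 region lay nearest Zfp512b. The region at Gpr180 straddles the edge of the Sox21 locus, so only 1 of its 8 summits counts there. The other 2 were the Sox9 promoter and a region at the first start of Sox5, whose highest score was 457.52 in native Nr5a2 and which native Sox2 lacked.

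Each factor's own motif was searched within 50 bp of the summits on both strands. The longer SOX form CCATTGTT, which contains the core, stood in 15 of 194 Sox2BiD summits at the loci (7.73%, 4.39 to 12.4) and in 5 of 96 native Sox2 summits (5.21%, 1.71 to 11.7), against 3.29% and 1.9% of all summits of these libraries. Only the interval of Sox2BiD excludes its genome share. The Sox2BiD matches lay at Sox5 (5), Sox6 (4), Sox2 (2), Sox1, Sox17, Sox18 and Sox7 (1 each). With the core alone, the shares were 28.4% (22.1 to 35.2) and 26% (17.6 to 36), and both intervals include the genome shares given above. In the other 6 libraries the core stood in 2.41% to 7.55% of the Sox-locus summits, against 5.02% to 6.34% of all summits.

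The octamer stood in 15 of 124 Oct4BiD summits at the loci (12.1%, 6.93 to 19.2) and in 7 of 86 native Oct4 summits (8.14%, 3.34 to 16.1), against 9.72% and 4.17% of all. Of the 15, 4 were at Sox9 and 4 at Sox5. The NR5A motif CAAGGNCA stood in 36 of 166 native Nr5a2 summits (21.7%, 15.7 to 28.7) and in 18 of 101 Nr5a2BiD summits (17.8%, 10.9 to 26.7), against 24.6% and 19.9%. The NANOG motif GCCATTA, which shares the run CCATT with the SOX form, stood in 2 of 82 native Nanog and 3 of 106 NanogBiD summits (2.44% and 2.83%), against 1.7% and 2.55%. The AP-1 motif TGANTCA, bound by Fos and Jun proteins of fibroblasts, stood in 3.23% to 12.3% of the Sox-locus summits of the 8 libraries and in 5.52% to 13.9% of all summits.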

How the data were processed

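The 8 deposited peak lists and their summit lists were used as the authors made them. Per the study's methods, reads were trimmed (Trim Galore 0.6.4), mapped to mm10 (bowtie2 2.4.5) and filtered with SAMtools 1.16.1 for repetitive, mitochondrial and poorly mapped reads (mapping quality under 30), and peaks were called with MACS 1.4.2 (1 tag kept per position, shift size 25 bp). No control library is named. The methods say that replicates were merged, whereas the reporting summary describes the experiment as performed once. In the deposited lists the score is the MACS p-value as −10 times its log10, with a minimum of 50 in each list, and the authors' summit signal is a whole number of tags that is not scaled to depth. The authors' read totals were not used for scaling.

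Genes came from GENCODE M21 and sequences from RefSeq GRCm38.p6. No peak ran past a chromosome end, and 110 peaks lay off placed chromosomes. Regions were peaks overlapping by at least 1 bp. The members, lists and rules were chosen with earlier results of these data known. Named sites were the best-ranked summit of each gene, the highest-scoring single-form peak of each library, regions in at least 7 libraries and summits within 2 kb of a start. Further sites at Sox21 (24.9 kb upstream and 10.8 kb downstream) and the summits on coding exons were named after their values were seen. Ranks are by score within a list. Intervals were exact Poisson or Clopper-Pearson, and those of a ratio came from the binomial share of the 2 counts. The functions were tested on simulated data. Python 3.11.15, NumPy 2.4.6, pandas 2.3.3, SciPy 1.17.1 and matplotlib 3.10.9 were used.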

Additional observations from a re-analysis of the deposited data

Results flagged for a closer look

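The plain number of Sox-locus summits differed between the BiD and native libraries in opposite directions. The log2 ratio of the summed counts, BiD over native, was -0.72 for Nr5a2 and positive for the other 3 factors (0.37 for Nanog, 0.53 for Oct4 and 1.01 for Sox2). Per 10000 peaks Nr5a2 did not stand against the rest, with -0.21 for Nr5a2, -0.25 for Oct4, -0.04 for Sox2 and 0.33 for Nanog. By gene, 5 of the 10 (Sox15, Sox21, Sox18, Sox5 and Sox6) had fewer summits with BiD for Nr5a2 and more for each of the other 3, as did 49.9% of all protein-coding genes with any summit. The difference was not tested, since each group holds 1 library.

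The peaks on the Sox2 coding sequence, set apart from all counts, scored 1208.22 in native Sox2 and 702.84 in Sox2BiD, and no other library had a peak there. Reads of vector DNA and of the gene cannot be told apart in these lists.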

How the results depend on the processing

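No paired analysis was possible because each group holds 1 library and the labels give no replicate numbers. Leaving out a replicate was not possible for the same reason. The summed count of 955 became 701 with a window of 50 kb, 1410 with 200 kb, 574 without the gene body beyond 100 kb, 597 at scores of at least 100, 470 at heights of at least 20 and 227 in the top 20000 peaks. The log2 ratio for Oct4 turned from -0.25 to 0.32 at heights of at least 20 and to 0.36 in the top 20000, with intervals that include 0 (-0.44 to 1.13 and -0.51 to 1.26). Without division by peak number the ratios were 0.53 for Oct4, 1.01 for Sox2 and -0.72 for Nr5a2. Genes with more BiD summits fell for Nanog from 7 to 4 (heights of at least 20) and 2 (top 20000, with 3 fewer), for Oct4 from 8 to 4 (top 20000 and top 50000, with 2 and 5 fewer) and for Sox2 from 10 to 4 (top 20000, with 2 fewer). Genes with fewer Nr5a2BiD summits went from 9 to 5 (top 20000) and 4 (top 50000, with 4 more). Genes with a promoter summit in any library went from 9 to 5 within 500 bp and 3 in the top 20000. Regions in at least 7 libraries went from 11 to 5 (summits within 100 bp), 1 (top 20000) and 5 (scores of at least 100), and regions in 1 library from 225 to 378 (summits within 100 bp) and 62 (top 20000). The SOX share of Sox2BiD went from 7.73% to 3.09% within 25 bp and 28.4% with the core, and that of native Sox2 from 5.21% to 26% with the core. The other 63 of 91 values stayed within the counting interval of the main value or, for counts of genes and regions, within 1.5 times of it. Wider windows, filters and shorter lists change these counts by construction. With 1 library per group, the condition and the library cannot be told apart.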
